A study of Mus musculus with 8 samples.

Results

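Semaphorins are secreted or membrane-bound guidance proteins, and plexins are their transmembrane receptors. Most class 3 semaphorins, which are secreted, bind neuropilins that form a complex with an A-type plexin. Semaphorins of classes 4 to 7 mostly bind plexins directly, and the intracellular part of a plexin regulates small GTPases and thereby the cytoskeleton and cell adhesion. The family was first known from axon guidance, and fibroblasts and other stromal cells are known to use it for migration and for signals to vessels, nerves and immune cells. All mouse protein-coding genes named Sema3 to Sema7, Plxna to Plxnd, Nrp1 or Nrp2 were taken by symbol, which gave 31 of 45321 genes: 20 semaphorins, 9 plexins and 2 neuropilins.

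Bulk poly-A RNA-seq was available for 4 Fib-Ctrl libraries (Zeb1 flox/flox) and 4 Fib-dZeb1 libraries (Zeb1 del/del) from untreated mouse colon fibroblast cultures. Each genotype had 2 lines with 2 replicate libraries each, the cultures came from mice with floxed Zeb1, and deletion was induced in vitro by Cre recombinase. The mouse age, whether lines of the same number belong together and what separates 2 replicates of a line were not stated in the sources, so that p-values measure the spread between these libraries, which may be partly technical. The question was what loss of ZEB1, a zinc finger repressor known from epithelial-mesenchymal transition, does to gene expression in fibroblasts.

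Libraries held 18852422 to 25540529 reads. Zeb1 itself was at 92.1 to 98.5 CPM (reads of a gene per 1000000 reads, scaled by TMM) in Fib-Ctrl and at 11.4 to 18.3 CPM in Fib-dZeb1, so all 8 libraries matched their labels. Of the fibroblast marker list, all 10 genes passed the filter on low counts, and their summed level was 53133 to 73554 CPM in Fib-Ctrl and 18208 to 33978 CPM in Fib-dZeb1, where Col1a1, Col1a2, Pdgfrb and Fn1 fell. Defining markers of cells in which semaphorins are best known were at or near 0, although other genes of the same lists were not. Pecam1 reached at most 0.309 CPM, Cdh5 at most 0.167 CPM, Ptprc at most 0.137 CPM, and the neuronal gene Elavl4 had no read. The endothelial list summed to 3.15 to 4.99 CPM in Fib-Ctrl and 3.74 to 6.11 CPM in Fib-dZeb1, with 1 of 8 genes tested. The list for enteric neurons or glia summed to 27.3 to 69.4 and 19.7 to 41.4 CPM, with 3 of 10 genes tested, Tubb3 at 17 to 59.9 CPM, Ret at 0.716 to 11.3 CPM and Uchl1 at 1.43 to 7.9 CPM over all libraries. The immune list summed to 3.77 to 16.5 and 3.58 to 3.96 CPM, with 3 of 8 genes tested and Lyz2 at 0.502 to 13.2 CPM over all libraries. In edgeR none of the tested genes of these 3 lists passed after adjustment, while 1, 2 and 3 of them had an unadjusted p under 0.05 and 0, 2 and 2 passed in DESeq2. Of all 12963 genes tested, 4243 had an unadjusted p under 0.05 in edgeR and 3214 passed in DESeq2. The epithelial list moved with genotype, from 1.98 to 5.04 CPM in Fib-Ctrl to 19.9 to 131 CPM in Fib-dZeb1, with Epcam and Krt18 called higher of 3 genes tested, Cdh1 at most 0.41 CPM and Cldn3 at 0. The mesothelial list summed to 1.4 to 5.35 and 3.44 to 23.4 CPM, with Msln called higher of 2 tested. The list for smooth muscle or pericytes fell from 1552 to 3166 CPM to 431 to 532 CPM, with Cnn1 and Actg2 called lower of 6 tested. In bulk RNA, fewer cells of a kind and less RNA per cell cannot be told apart, and the part of these lists in the results below was not tested. The Fib-dZeb1 line 1 libraries stood apart, with Xist reads (at least 113 CPM) and no Ddx3y read, whereas the other 3 lines had Ddx3y reads and no Xist read. It therefore cannot share an animal with Fib-Ctrl line 1, and comparisons of the line 1 pair set a line with Xist reads against one with Ddx3y reads. Results of the called members are also given without it.

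Promoter windows are shown for the neuropilins, because the pair moved in opposite directions, and for members with the motif that ZEB1 is known to bind. The sequences are from RefSeq (GRCm38.p6), where 26 of the 31 members had a window from 250 bases before to 50 bases after a start. Windows were searched on both strands for CACCTG, and all bases shown lie before the start and outside annotated exons. Capitals mark the motif, which reads as its reverse complement where it lies on the other strand, and the windows without capitals hold none.
Nrp1, chr8:128358823-128359072, plus strand: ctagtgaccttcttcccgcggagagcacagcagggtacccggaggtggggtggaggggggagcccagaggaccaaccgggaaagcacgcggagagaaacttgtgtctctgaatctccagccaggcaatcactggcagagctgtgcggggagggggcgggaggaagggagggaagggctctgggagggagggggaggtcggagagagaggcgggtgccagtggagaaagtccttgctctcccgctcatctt
Nrp2, chr1:62703067-62703284, plus strand: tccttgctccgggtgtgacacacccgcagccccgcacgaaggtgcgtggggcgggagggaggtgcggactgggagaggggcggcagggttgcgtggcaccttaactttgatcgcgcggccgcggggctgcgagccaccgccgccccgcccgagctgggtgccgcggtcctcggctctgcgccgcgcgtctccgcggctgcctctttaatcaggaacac
Sema3d, chr5:12382936-12382981, plus strand: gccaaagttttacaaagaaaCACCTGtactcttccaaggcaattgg
Plxnb2, chr15:89174127-89174172, minus strand: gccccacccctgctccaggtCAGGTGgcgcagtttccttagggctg
Sema6d, chr2:124653371-124653416, plus strand: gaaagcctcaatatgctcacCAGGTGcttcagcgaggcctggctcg
Sema4f, chr6:82939833-82939899, minus strand: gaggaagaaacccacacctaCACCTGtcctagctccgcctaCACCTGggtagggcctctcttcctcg
The motif was present in 5 of the 37 member windows (13.5%), against 20.2% of all 32851 windows in the table. Beside the 4 members shown, Sema4c held a match in an annotated exon. The match lay 210 bases before the start in Sema3d, 201 in Plxnb2, 190 in Sema6d and 110 in Sema4f, which held a further copy nearer to the start. In Plxnb2 and Sema6d that start lay inside the gene, and the window at the 5' end of each gene held no match. The Nrp1 bases shown also lay inside the annotated gene, which begins at 128358604, and not before its 5' end. None of the 7 members that passed the genotype test and had a window held a match. A match is a description of the letters only, and no match says only that the letters are not in the window. The Nrp2 window was 70.7% G and C with 37 CpG and the Nrp1 window 64% with 14 CpG.

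**Figure D1:**
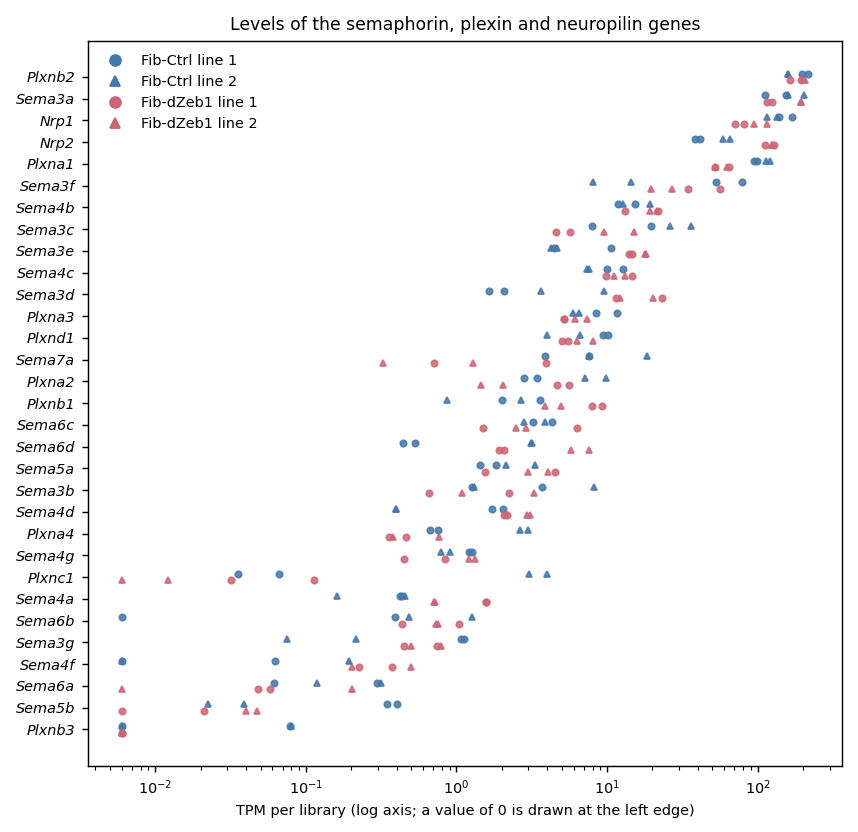
TPM of the 31 members in each of the 8 libraries on a log axis, ordered by mean TPM, with circles for line 1 and triangles for line 2 of each genotype and values of 0 drawn at the leftmost position. Plxnb2, Sema3a, Nrp1, Nrp2 and Plxna1 were the 5 members with a mean of at least 50 TPM, and Plxnb3 was lowest with a mean of 0.0197 TPM.

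Levels of different members can be compared only per length, so they are given as TPM, which divides reads by transcript length and scales each library to the same total. Over all 8 libraries, 22 members had a mean of at least 1 TPM, 11 of at least 10 TPM and 5 of at least 50 TPM. The receptor Plxnb2, which binds class 4 semaphorins, was highest with 183 ± 28.5 TPM (SD, n = 4) in Fib-Ctrl and 191 ± 18.3 TPM (SD, n = 4) in Fib-dZeb1. The secreted ligand Sema3a, a repellent cue for axons that binds Nrp1, followed with 156 ± 37.2 and 158 ± 43.5 TPM (SD, n = 4 each). Nrp1 was at 140 ± 21.9 TPM in Fib-Ctrl and 90.7 ± 19.5 TPM in Fib-dZeb1, Nrp2 at 51 ± 13 and 122 ± 7.65 TPM, and Plxna1, a signalling partner of neuropilins, at 107 ± 12 and 57.8 ± 6.59 TPM (SD, n = 4 each). Sema3f, a ligand that prefers Nrp2, was sixth with 38.3 ± 33.1 and 34.1 ± 15.6 TPM (SD, n = 4 each). In Fib-Ctrl the order of the receptors was Plxnb2, Nrp1, Plxna1, Nrp2, and in Fib-dZeb1 it was Plxnb2, Nrp2, Nrp1, Plxna1. Neighbours such as Plxnb2 and Sema3a, or Nrp1 and Sema3a in Fib-Ctrl, lay within the spread of their libraries. Part of the TPM was assigned to short transcripts. One of 312 bases carried 13.6 to 27.3% of the Sema3a TPM, and a processed transcript of 841 bases carried 12.3 to 17.8% of the Plxnb2 TPM. The order of these neighbours depends on counting them. With CPM per kilobase of effective length in place of TPM, only Sema3b and Sema5a changed places. That length was itself weighted by the TPM of the transcripts, so the same order follows almost by construction and is no separate check.

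Between the genotypes, 9 of the 26 members that passed the filter on low counts passed edgeR's quasi-likelihood test (Benjamini-Hochberg adjusted p under 0.05 over all 12963 genes tested). Nrp2, Sema3e, Plxnb1 and Sema4a rose, and Nrp1, Plxna1, Plxna3, Plxna4 and Sema7a fell in Fib-dZeb1. The 4 that rose were 15.4% of the tested members, against 7.54% of all tested genes, and the 5 that fell were 19.2%, against 8.65%. Of the 17 tested semaphorins 2 rose and 1 fell, of the 7 tested plexins 1 rose and 3 fell, and of the neuropilins 1 rose and 1 fell. The median log2 fold change (Fib-dZeb1 minus Fib-Ctrl) was -0.12 over the 26 members and -0.00 over all tested genes, and it was -0.66 over the plexins and 0.19 over the semaphorins. In 9 of 26 members (34.6%) the 4 libraries of one genotype did not overlap with those of the other, against 24.3% of all tested genes. Those 9 were the called members without Plxna3, plus Sema3d. The replicates of a line were more alike than the lines (correlation within lines 0.543 in limma), and with this correlation in limma-voom only Nrp2 and Plxna1 kept an adjusted p under 0.05. With the libraries of each line summed, leaving 2 samples per genotype, no member passed the edgeR test, and 9 genes rose and 7 fell in all. An unadjusted p under 0.05 was reached by 10 of the 26 members, against 1862 of the 12963 genes tested. Without Fib-dZeb1 line 1, 4 of the 9 called members kept their call (Nrp2, Sema3e, Plxna1 and Sema7a). With scaling by library size alone, which moved the median log2 fold change of all tested genes from -0.005 to 0.173, 5 members rose and 4 fell, against 2272 and 719 of all genes.

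**Figure D2:**
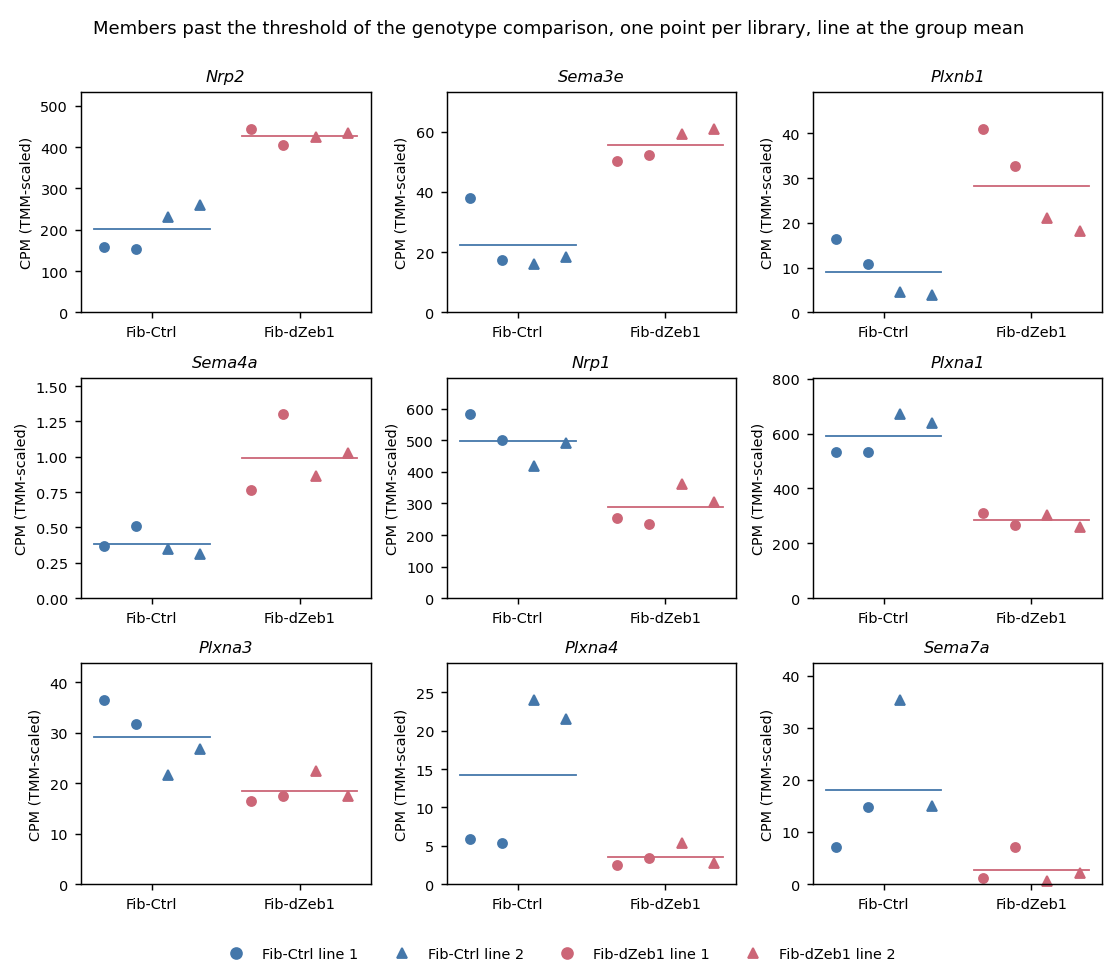
TMM-scaled CPM of the 9 members past the threshold, one panel per gene, with one point per library, circles for line 1, triangles for line 2 and a horizontal line at the mean of each genotype. The genotypes do not overlap except in Plxna3, where Fib-Ctrl reached down to 21.7 CPM and Fib-dZeb1 up to 22.5 CPM.

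Nrp2, a co-receptor for Sema3f and for the lymphatic growth factor VEGF-C, was at 158, 154, 231 and 260 CPM in Fib-Ctrl (line 1 replicates 1 and 2, then line 2 replicates 1 and 2) and at 445, 404, 425 and 433 CPM in Fib-dZeb1 in the same order. All Fib-dZeb1 libraries were above all Fib-Ctrl libraries, and within Fib-Ctrl line 2 was above line 1. This was a log2 fold change of 1.09 ± 0.18 (SE), a 2.12-fold rise, with an edgeR adjusted p of 0.0071. Leaving out each library in turn gave 0.98 to 1.23 with adjusted p-values of 0.00688 to 0.0245, and without Fib-dZeb1 line 1 it was 1.10 with 0.0343. With the libraries of each line summed it was 1.08 with an adjusted p of 0.233.

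Nrp1, the co-receptor for Sema3a and for VEGF-A, was at 582, 501, 417 and 491 CPM in Fib-Ctrl and at 253, 235, 362 and 304 CPM in Fib-dZeb1. The groups did not overlap, with the lowest Fib-dZeb1 values in line 1. Its log2 fold change was -0.79 ± 0.16 (SE), a 1.73-fold fall, with an edgeR adjusted p of 0.0152. It kept its call without any single library, but without both libraries of Fib-dZeb1 line 1 it was -0.58 with an adjusted p of 0.0639. With the correlation within lines the adjusted p was 0.0791 in limma-voom.

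**Figure D3:**
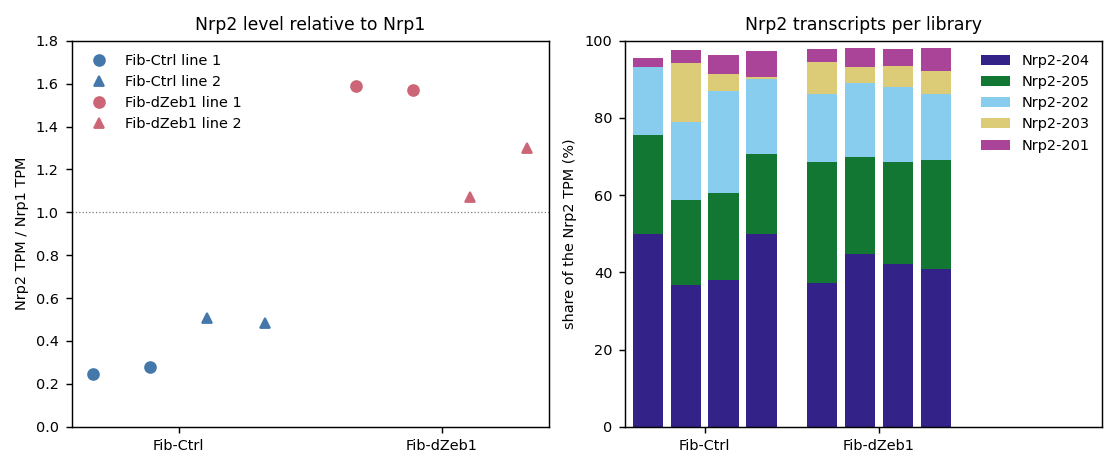
Left, the ratio of Nrp2 TPM to Nrp1 TPM in each library, with circles for line 1, triangles for line 2 and a dotted line at 1. Right, the share of the Nrp2 TPM in percent carried by the 5 main annotated transcripts in each library, stacked from Nrp2-204 at the bottom. The ratio was at most 0.506 in Fib-Ctrl and at least 1.07 in Fib-dZeb1, and no transcript took over in either genotype.

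Set against each other per length, Nrp2 was at 0.245, 0.279, 0.506 and 0.485 of the Nrp1 TPM in Fib-Ctrl and at 1.59, 1.57, 1.07 and 1.3 of it in Fib-dZeb1. Nrp1 was thus the higher neuropilin in all 4 Fib-Ctrl libraries and Nrp2 in all 4 Fib-dZeb1 libraries, a ratio that was chosen after its values were seen and is given with no test. The sum of the pair was 191 ± 17.3 TPM (SD, n = 4) in Fib-Ctrl and 213 ± 24 TPM (SD, n = 4) in Fib-dZeb1. Of the 7 annotated Nrp2 transcripts, the protein-coding Nrp2-204 carried 36.6 to 50% of the Nrp2 TPM, another of 6534 bases carried 20.7 to 31.4% and Nrp2-202 carried 17.2 to 26.4% over the 8 libraries. The mean shares of the transcript of 6534 bases were 22.8% in Fib-Ctrl and 27.8% in Fib-dZeb1, with ranges that overlapped. Nrp1 has a single annotated transcript here. Shares of transcripts are Salmon's estimates, because most reads fit several transcripts.

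Plxna1, the most abundant A-type plexin, was at 531, 531, 670 and 639 CPM in Fib-Ctrl and at 312, 266, 303 and 260 CPM in Fib-dZeb1. Every Fib-dZeb1 library was below every Fib-Ctrl library, and the lines of Fib-dZeb1 were alike. The log2 fold change was -1.05 ± 0.12 (SE), a 2.08-fold fall, with the smallest adjusted p of the members in edgeR (0.00184). Without single libraries it stayed between -1.11 and -0.99, without Fib-dZeb1 line 1 it was -1.07 with an adjusted p of 0.0145, and all its TPM came from the protein-coding Plxna1-202. An antisense gene, Gm26811, overlaps its exons, and its own level was at most 1.05 CPM.

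The other A-type plexins had mean levels of 7.05 TPM (Plxna3), 4.61 TPM (Plxna2) and 1.13 TPM (Plxna4) over all libraries, against 82.2 TPM for Plxna1. Plxna3, which is on the X chromosome and serves Sema3f through Nrp2, was at 36.5, 31.8, 21.7 and 26.7 CPM in Fib-Ctrl and at 16.5, 17.5, 22.5 and 17.5 CPM in Fib-dZeb1. The groups touched, since Fib-dZeb1 line 2 replicate 1 was above Fib-Ctrl line 2 replicate 1. Its log2 fold change was -0.66 ± 0.18 (SE) with an edgeR adjusted p of 0.0408. The call was lost without any 1 of 6 libraries (adjusted p 0.059 to 0.105) and survived only the removal of replicate 1 of line 2, in either genotype. With line 1 of Fib-dZeb1 left out, the line with Xist reads, it was -0.54 with an adjusted p of 0.17.

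Plxna4, a receptor for Sema3a and class 6 semaphorins, was at 5.82, 5.4, 24 and 21.5 CPM in Fib-Ctrl and at 2.48, 3.39, 5.38 and 2.72 CPM in Fib-dZeb1. The groups did not overlap by a narrow margin, and the high values were those of Fib-Ctrl line 2. In edgeR the log2 fold change was -2.02 ± 0.55 (SE), a 4.06-fold fall, with an edgeR adjusted p of 0.0401. The call held only without 1 of the Fib-Ctrl line 1 libraries and was lost without any 1 of the other 6 (adjusted p 0.0545 to 0.107) or with line 1 of Fib-dZeb1 left out (-1.81, adjusted p 0.173). Plxna2 is described with the lines below, and its genotype difference did not pass (log2 fold change -0.96 ± 0.54 SE, adjusted p 0.254).

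Of the B-type plexins, Plxnb1, the receptor of Sema4d, was at 16.4, 10.9, 4.6 and 3.98 CPM in Fib-Ctrl and at 41.1, 32.7, 21.2 and 18.3 CPM in Fib-dZeb1. In each genotype line 1 was above line 2, and the lowest Fib-dZeb1 library was above the highest Fib-Ctrl library. The log2 fold change was 1.66 ± 0.48 (SE), a 3.15-fold rise, with an edgeR adjusted p of 0.0475. The call held only without Fib-Ctrl line 1 replicate 1 and was lost without any 1 of the other 7 libraries (adjusted p 0.0682 to 0.101) or without Fib-dZeb1 line 1 (1.14, adjusted p 0.218). In Fib-Ctrl line 2 replicate 2 a retained-intron transcript took 50% of the gene's TPM, and in Fib-dZeb1 no TPM was assigned to it. The antisense gene Gm7628 overlaps its exons and was at most 0.41 CPM.

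Plxnb2 was at 631, 735, 520 and 542 CPM in Fib-Ctrl and at 587, 505, 590 and 591 CPM in Fib-dZeb1. The groups overlapped throughout, with a log2 fold change of -0.09 ± 0.13 (SE) and an edgeR adjusted p of 0.652. Plxnb3 had 6 and 5 reads in 1 library of each Fib-Ctrl line and none in Fib-dZeb1, at least 4.43-fold lower against a floor of 3 reads over the Fib-dZeb1 group, and it was not tested.

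**Figure D4:**
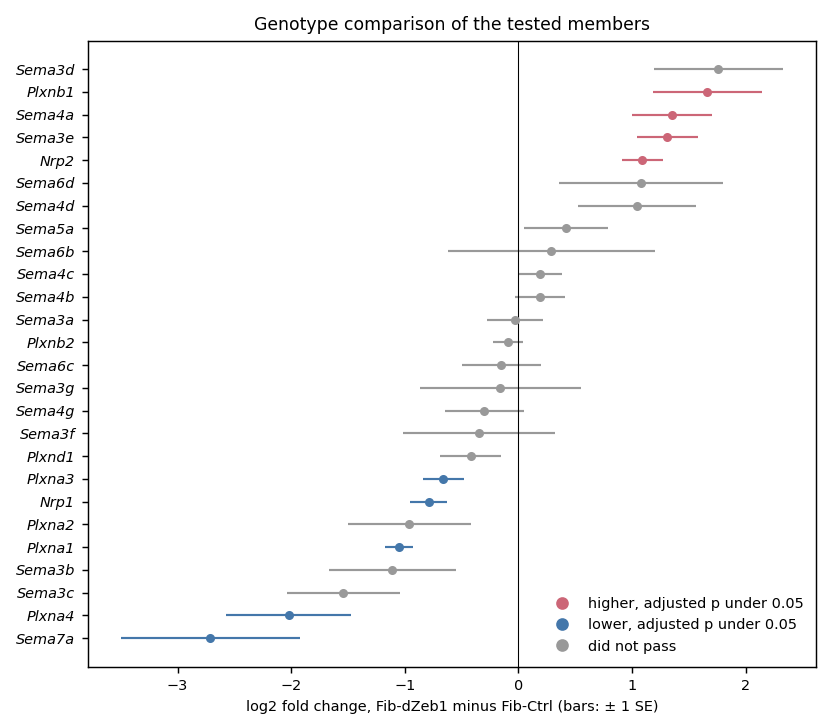
Log2 fold change (Fib-dZeb1 minus Fib-Ctrl) with bars of 1 SE for the 26 tested members, ordered by size, in red where higher and in blue where lower at an edgeR adjusted p under 0.05 and in grey where the test was not passed. The called values run from -2.71 for Sema7a to 1.66 for Plxnb1, and Sema3d at 1.76 and Sema3c at -1.54 lie beyond several called members without passing.

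Among the class 3 ligands, all 7 were tested and 1 passed. Sema3e, which differs from its relatives in binding Plxnd1 without a neuropilin, was at 38, 17.3, 16.2 and 18.4 CPM in Fib-Ctrl and at 50.2, 52.2, 59.2 and 61 CPM in Fib-dZeb1. The Fib-dZeb1 libraries lay close together above all Fib-Ctrl libraries, of which line 1 replicate 1 stood apart from the other 3. The log2 fold change was 1.31 ± 0.27 (SE), a 2.47-fold rise, with an edgeR adjusted p of 0.0157. Without single libraries it was 1.18 to 1.68 with adjusted p-values up to 0.0473, without Fib-dZeb1 line 1 it was 1.42 with 0.0481, and with the correlation within lines the limma-voom adjusted p was 0.0896. The protein-coding Sema3e-201 carried 58.4 to 86% of its TPM and a retained-intron transcript most of the rest. Its receptor Plxnd1 was at 17 to 43.1 CPM in Fib-Ctrl and 19.6 to 29.7 CPM in Fib-dZeb1 and did not pass (log2 fold change -0.42 ± 0.27 SE, adjusted p 0.322).

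Sema3a was at 297, 229, 343 and 444 CPM in Fib-Ctrl and at 237, 246, 400 and 405 CPM in Fib-dZeb1. The ranges nearly coincided and line 2 was above line 1 in both genotypes. Sema3a had a log2 fold change of -0.03 ± 0.25 (SE) with an edgeR adjusted p of 0.957. Sema3f was at 123, 89.6, 12.8 and 20.4 CPM in Fib-Ctrl and at 74.6, 51.1, 38.5 and 29.3 CPM in Fib-dZeb1. The Fib-dZeb1 values lay between those of the Fib-Ctrl lines, and the log2 fold change was -0.35 ± 0.67 (SE) with an adjusted p of 0.758, turning to 0.23 without Fib-Ctrl line 1 replicate 1.

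Of the class 3 ligands that did not pass, Sema3d and Sema3c had the largest differences. Sema3d was at 6.32, 4.99, 13.1 and 31.5 CPM in Fib-Ctrl and at 70.4, 33, 53 and 33.7 CPM in Fib-dZeb1. The groups did not overlap, although Fib-Ctrl line 2 replicate 2 came close to the lower Fib-dZeb1 libraries. Its log2 fold change was 1.76 ± 0.57 (SE) with an adjusted p of 0.0667 in edgeR and of 0.00598 in DESeq2. Sema3c, known for its role in outflow tract development and tumour growth, was at 62.7, 26.5, 86.9 and 121 CPM in Fib-Ctrl and at 16.3, 14.1, 43.5 and 28.4 CPM in Fib-dZeb1. Its groups overlapped and line 2 was the higher line in both, with a log2 fold change of -1.54 ± 0.50 (SE) and an adjusted p of 0.0667 in edgeR and of 0.00684 in DESeq2. Sema3b was at 1.81 to 7.45 CPM in Fib-Ctrl and 1.03 to 2.72 CPM in Fib-dZeb1, and Sema3g at most 2.93 CPM in any library, and neither passed.

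Sema3d, Sema3a, Sema3e and Sema3c lie on the plus strand of chromosome 5, from 12383385 to 17730268 (GRCm38). In chromosomal order their log2 fold changes were 1.76, -0.03, 1.31 and -1.54, and of these only that of Sema3e passed. Sema3b and Sema3f lie on the minus strand of chromosome 9, at 107597674 to 107609229 and at 107681500 to 107710475, with log2 fold changes of -1.11 and -0.35, neither of which passed.

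Of the membrane-bound ligands of classes 4 to 7, 10 of 13 were tested and 2 passed. Sema7a, a GPI-anchored semaphorin that binds Plxnc1 and beta 1 integrin, was at 7.1, 14.8, 35.3 and 14.9 CPM in Fib-Ctrl and at 1.19, 7.03, 0.547 and 2.2 CPM in Fib-dZeb1. The groups did not overlap, but the highest Fib-dZeb1 library nearly reached the lowest Fib-Ctrl library, and single libraries of a line differed several-fold. Sema7a had a log2 fold change of -2.71 ± 0.79 (SE), a 6.53-fold fall and the largest of the called members, with an edgeR adjusted p of 0.0483. The call survived only the removal of replicate 2 of Fib-dZeb1 line 1 (adjusted p 0.0209) and was lost without any 1 of the other 7 libraries (0.053 to 0.123). Without both libraries of Fib-dZeb1 line 1 it was -3.69 with an adjusted p of 0.0441.

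Sema4a, which acts on immune and endothelial cells, was at 0.366, 0.514, 0.349 and 0.31 CPM in Fib-Ctrl and at 0.764, 1.3, 0.866 and 1.03 CPM in Fib-dZeb1. The groups did not overlap, but the values rest on 8, 10, 6 and 6 reads against 16, 31, 19 and 28 reads. The log2 fold change was 1.35 ± 0.35 (SE) with an edgeR adjusted p of 0.0343, and the call survived only the removal of replicate 1 of Fib-dZeb1 line 1, with adjusted p-values of 0.0511 to 0.0923 without the other libraries. With that whole line left out it was 1.29 with an adjusted p of 0.101. Sema4b and Sema4c were the most abundant of these classes, at 11.9 to 21.8 TPM and 7.37 to 14.6 TPM over all libraries, and their log2 fold changes of 0.19 each did not pass (adjusted p 0.594 and 0.527).

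The remaining tested members of classes 4 to 6 did not pass the genotype test. Sema5a was at 8.98 to 27.8 CPM, Sema6c at 2.01 to 6.16 CPM, Sema4g at 1.13 to 3.34 CPM and Sema6b at 0 to 2.94 CPM over all libraries. The 3 untested semaphorins were near the floor: Sema4f had 11 reads over Fib-Ctrl and 65 over Fib-dZeb1, Sema5b had 10 and 6, and Sema6a had 44 and 20. Plxnc1, the other untested plexin beside Plxnb3, had 430 reads over Fib-Ctrl and 13 over Fib-dZeb1, nearly all from 1 line.

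**Figure D5:**
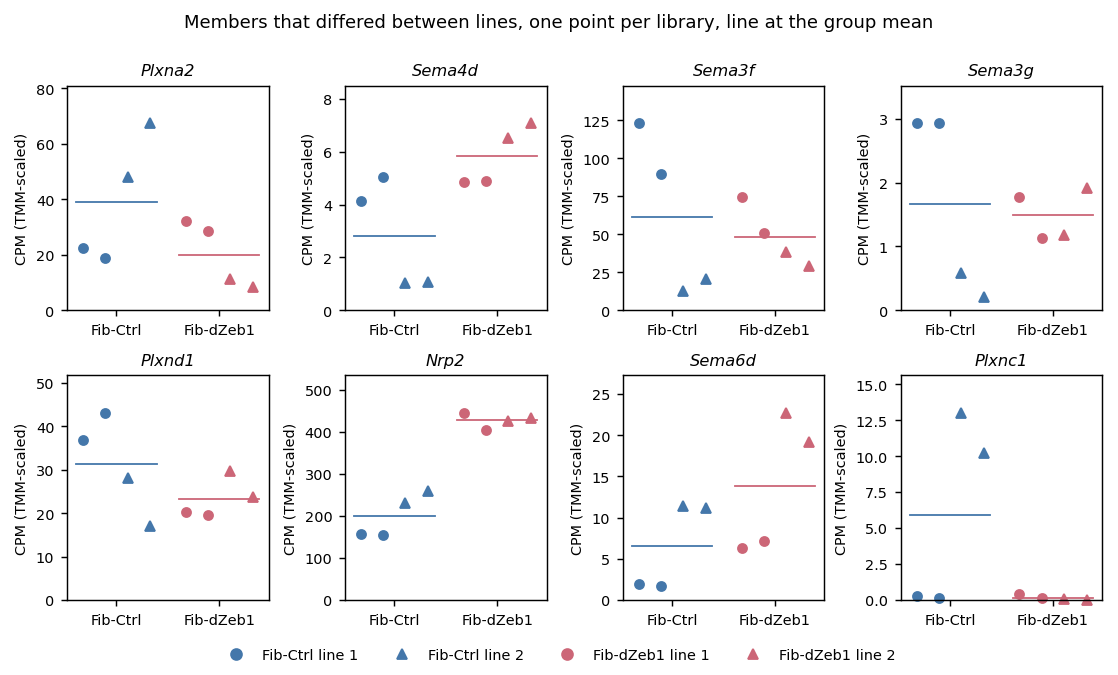
TMM-scaled CPM of the 7 members with a line difference of the genotype effect and of Plxnc1, one point per library, with circles for line 1, triangles for line 2 and a horizontal line at the mean of each genotype. In Plxna2 the lines are in opposite order in the 2 genotypes, Sema4d and Sema3g are low only in Fib-Ctrl line 2, and Plxnc1 is above 0.43 CPM only there.

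The lines differed in many members. The genotype effect of line 2 minus that of line 1, tested as an interaction in edgeR, passed for 7 of 26 members (26.9%), against 15.3% of all tested genes: Plxna2, Sema4d, Sema3f, Nrp2, Sema3g, Plxnd1 and Sema6d. Lines of the same number are not known to belong together, and the line 1 pair differed in Xist and Ddx3y, so the interaction rests on a match by number only, and the lines were also compared within each genotype. All of these comparisons set single lines against each other, so their SEs and p-values measure the spread between replicate libraries of a line and not between lines. Line 2 differed from line 1 in 11 members (42.3%) within Fib-Ctrl, against 17.0% of all tested genes, and in 3 (11.5%) within Fib-dZeb1, against 6.87%.

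Plxna2, an A-type receptor for class 3 and class 6 ligands, was at 22.4, 18.8, 47.9 and 67.4 CPM in Fib-Ctrl and at 32.2, 28.6, 11.2 and 8.26 CPM in Fib-dZeb1. Line 2 was the higher line in Fib-Ctrl (log2 difference 1.49 ± 0.21 SE, edgeR adjusted p 0.00544) and the lower one in Fib-dZeb1 (-1.65 ± 0.22 SE, adjusted p 0.00997). The interaction was -3.14 ± 0.31 (SE) with an adjusted p of 0.00196.

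Sema4d, the ligand of Plxnb1 and a known activator of immune cells, was at 4.12, 5.04, 1.05 and 1.08 CPM in Fib-Ctrl and at 4.87, 4.9, 6.52 and 7.08 CPM in Fib-dZeb1. Only Fib-Ctrl line 2 was low, which gave an interaction of 2.57 ± 0.35 (SE) with an edgeR adjusted p of 0.0054. For Plxna2 and Sema4d the interaction passed under all 12 alternatives, those without single libraries included.

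For the other 5 members the interaction was lost without some single libraries. For Sema6d it was also lost with all libraries kept, with scaling by library size (adjusted p 0.0572), in DESeq2 (0.0501) and with no filter on low counts (0.0724). Sema3f was lower in line 2 of Fib-Ctrl by 2.68 ± 0.30 (SE) on the log2 scale (edgeR adjusted p 0.00251), with an interaction of 1.79 ± 0.41 (SE, adjusted p 0.0272). Sema3g, at 2.93, 2.93, 0.582 and 0.206 CPM in Fib-Ctrl and at 1.13 to 1.91 CPM in Fib-dZeb1, had an interaction of 3.0 ± 0.75 (SE, adjusted p 0.0357), with 4 to 64 reads per library. Sema6d, a ligand of Plxna1, was at 1.92, 1.75, 11.4 and 11.1 CPM in Fib-Ctrl and at 6.3, 7.12, 22.7 and 19.1 CPM in Fib-dZeb1. Line 2 was the higher line in both genotypes. The genotype difference of 1.08 ± 0.72 (SE) did not pass (edgeR adjusted p 0.329), and between lines of the same number it was 1.87 for line 1 and 0.90 for line 2.

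Between lines of the same number, the log2 difference of Nrp2 was 1.44 for line 1 and 0.80 for line 2, with an interaction of -0.64 ± 0.15 (SE, edgeR adjusted p 0.031). That of Plxna1 was -0.88 and -1.22, with an interaction of -0.34 ± 0.18 (SE, adjusted p 0.226). That of Nrp1 was -1.15 and -0.45, with an interaction of 0.70 ± 0.20 (SE, adjusted p 0.0537). Plxnc1, the receptor of Sema7a, was at 0.275, 0.154, 13 and 10.2 CPM in Fib-Ctrl and at most 0.43 CPM in Fib-dZeb1, so its reads came from Fib-Ctrl line 2.

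Among 73 other genes of semaphorin signalling in 4 lists, 64 were tested, 4 rose and 4 fell, and the median log2 fold change was -0.02. These were 12.5% of the tested list genes, against 16.2% of all tested genes in either direction. Of the other receptors and co-receptors, 1 of 12 tested passed: Met, the HGF receptor that also associates with plexin B1, was at 21.8 to 43.9 CPM in Fib-Ctrl and at 129 to 220 CPM in Fib-dZeb1, a log2 fold change of 2.21 ± 0.25 (SE) with an edgeR adjusted p of 0.0018. Of the 9 other ligands of neuropilins, Vegfc, the lymphatic growth factor that uses Nrp2, was at 11.5 to 27.4 CPM in Fib-Ctrl and rose to 41.6 to 78.8 CPM (1.60 ± 0.36 SE on the log2 scale, adjusted p 0.0204), and Hgf fell from 102 to 273 CPM to 30.3 to 106 CPM (-1.57 ± 0.44 SE, adjusted p 0.0445). The Hgf libraries overlapped between the genotypes, and the difference was -2.76 for the line 1 pair and -0.40 for the line 2 pair, with an interaction of 2.35 ± 0.39 (SE, adjusted p 0.00995). Vegfa, the main ligand of Nrp1 outside the semaphorins, did not pass (-1.13 ± 0.36 SE, adjusted p 0.0628).

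Of 35 tested plexin effectors, 2 rose and 2 fell. Sh3bp1, a GTPase-activating protein for Rac that binds plexins, rose by 0.68 ± 0.13 (SE, edgeR adjusted p 0.0134), and Dpysl2, the collapsin response mediator of Sema3a signalling, rose by 0.54 ± 0.15 (SE, adjusted p 0.0417) on the log2 scale. Dpysl2 also had an interaction, of 0.63 ± 0.16 (SE, adjusted p 0.0387), with differences of 0.21 for the line 1 pair and 0.83 for the line 2 pair. Fyn, a kinase that acts downstream of plexin A, fell by 0.83 (SE 0.15, adjusted p 0.0106), and Mical2, an actin-oxidising enzyme, fell by 0.82 (SE 0.23, adjusted p 0.0458). The Mical2 libraries overlapped, at 258 to 444 CPM in Fib-Ctrl and 167 to 301 CPM in Fib-dZeb1. Its difference was -0.30 for the line 1 pair and -1.35 for the line 2 pair, and the edgeR interaction did not pass (adjusted p 0.0618). Rap1b, a small GTPase that plexins switch off, reached 2220 and 1623 CPM in line 1 of Fib-dZeb1, against 181 to 210 CPM in the other 6 libraries. Its genotype difference did not pass (adjusted p 0.064), and the chromosome 10 gene Mdm2 likewise reached 1470 and 941 CPM there, against 61 to 140 CPM elsewhere. Of 8 tested proteases that process semaphorins, Furin, the convertase that cleaves class 3 semaphorins, fell by 0.57 on the log2 scale, from 171 to 225 CPM to 127 to 144 CPM (SE 0.11, adjusted p 0.0136).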

How the data were processed

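Poly-A selected RNA was sequenced in 8 libraries. Per the submitters' processing notes and the study's methods, the reads were run through the nf-core RNA-seq pipeline. It used STAR alignment to GRCm38 and quantification by Salmon (versions of both not given in the sources used here). The deposited values per transcript are Salmon's estimated counts and TPM, which is scaled by the authors' pipeline to length and library. Whether the counting used strand is not given in the sources used here, so a gene and an antisense gene over its exons cannot be told apart.

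Transcripts were summed to genes with GENCODE M21 (GRCm38), which matched 98.72% of the 109617 transcripts and left out 0.262 to 0.303% of the reads per library. Expected counts were rounded, filtered with filterByExpr, scaled by TMM and tested with edgeR 4.0.16 (quasi-likelihood, genotype as the only term, R 4.3.3), with Benjamini-Hochberg adjustment over all tested genes at 0.05. A fit with 1 mean per genotype and line gave the comparisons between lines. Replicates of a line differed beyond sampling noise (chi-square per gene at least 19.6), and the biological coefficient of variation was 32.1%. With 18852422 to 25540529 reads per library, a gene at 1 CPM rests on about 20 reads, and the floor for a count of 0 was 3 reads, covering counting error only.

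Alternatives used DESeq2 1.42.0, limma 3.58.1, other scalings and filters, a term or correlation for lines, log2(TPM + 0.1), log2(TPM + 1) and leaving out each library. Leaving out Fib-dZeb1 line 1 was chosen after seeing the data. The scripts were tested on simulated counts. Full statistics are given for each member past the threshold and for the 6 members with the highest mean TPM, with the other members by range. Of the other pathway lists, each gene past the threshold is named, at most 4 per direction and list. Vegfa, Rap1b, Mdm2, Sema3c and Sema3d were named after their values were seen. The members, lists and tests were chosen with earlier results of these data known.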

Additional observations from a re-analysis of the deposited data

Results flagged for a closer look

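In 2 of 52 groups of 4 libraries (26 tested members in each genotype), 1 library stood apart from the other 3 by Dixon's criterion, which chance gives in about 1 of 20 groups. Plxnb2 was at 505 CPM in Fib-dZeb1 line 1 replicate 2 against 587 to 591 CPM in the other Fib-dZeb1 libraries. Sema3e was at 38 CPM in Fib-Ctrl line 1 replicate 1 against 16.2 to 18.4 CPM in the other Fib-Ctrl libraries.

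The genotype effect differed between line numbers, by the edgeR interaction, for 7 members. The log2 difference (line 2 minus line 1) was -3.14 for Plxna2, 2.57 for Sema4d, 1.79 for Sema3f, -0.64 for Nrp2, 3.0 for Sema3g, 1.26 for Plxnd1 and -0.97 for Sema6d, with adjusted p-values of 0.00196, 0.0054, 0.0272, 0.031, 0.0357, 0.0429 and 0.0481. For all of them except Plxna2 and Sema4d the call was lost without some single libraries. Adjusted p-values then ranged from 0.0534 to 0.0976 for Sema3f, whose call survived the removal of either Fib-dZeb1 line 1 library or of replicate 2 of either Fib-Ctrl line. They ranged from 0.0586 to 0.123 for Nrp2, whose call survived only the removal of either Fib-dZeb1 line 1 library, and from 0.0676 to 0.127 for Sema3g, where it survived the removal of replicate 1 of Fib-dZeb1 line 1 or of Fib-Ctrl line 2. They ranged from 0.0541 to 0.145 for Plxnd1, where it survived the removal of replicate 1 of Fib-Ctrl line 2, and from 0.0817 to 0.172 for Sema6d, where it survived the removal of replicate 1 of Fib-dZeb1 line 1. The Sema6d call was also lost with scaling by library size (0.0572), in DESeq2 (0.0501) and with no filter on low counts (0.0724).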

How the results depend on the processing

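Nrp2, Sema3e, Nrp1 and Plxna1 kept their direction and call without each single library, whereas the other 5 called members lost it without several. No called member changed direction under any alternative run. Of all tested genes 978 rose and 1121 fell in the main fit. In DESeq2 1544 rose and 1670 fell, and with scaling by library size 2272 rose and 719 fell. The counts were 9 and 7 with lines summed, and 114 and 146 in limma-voom with a correlation within lines. They were 1941 and 698 on log2(TPM + 0.1), and 1938 and 691 on log2(TPM + 1). Without single libraries 476 to 1011 genes rose and 508 to 1141 fell. Of the members, 0 rose and 0 fell with lines summed, where 10 of 26 had an unadjusted p under 0.05, against 1862 of 12963 tested genes. In DESeq2 5 members rose and 6 fell. In limma-voom 1 member rose and 1 fell, without Fib-dZeb1 line 1 it was 2 and 2, and 3 fell on both log2(TPM) scales. Without single libraries 2 to 3 members rose and 2 to 4 fell. Of the other pathway genes 8 rose and 9 fell in DESeq2, and without single libraries 3 to 6 rose and 2 to 4 fell. The line difference was called for 3262 genes and 14 members with no filter on low counts, and without single libraries for 685 to 2850 genes and 2 to 10 members.

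Deviations from the genotype mean correlated at -0.04 to 0.20 between same-numbered libraries of the genotypes, and 3 of 8 libraries were closest to their own number. These deviations include the differences between lines, so whether replicates of the same number share an effect was not tested. In every line Sema3b was higher in replicate 1 than in replicate 2 (4.81 against 1.85 CPM in Fib-Ctrl line 1). Sema4b was lower in replicate 1 of every line (25.7 against 34.6 CPM in Fib-Ctrl line 1). Plxnb1 and Sema4c were also higher in replicate 1 of every line, and Sema4d and Sema6b were also lower. How many of all tested genes kept such an order was not counted, so it is not known to be particular to these members. With a replicate block 3 members rose and 3 fell, with Sema3b (adjusted p 0.037) among them, and 3114 genes had a line difference.

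The members with differences near 0 changed sign. With scaling by library size, for Plxnb2 and Sema3a, this follows from the shift of all tested genes, whose median moved from -0.005 to 0.173. Plxnb2 was at 0.08 with scaling by library size, 0.07 on both log2(TPM) scales and 0.01 without Fib-Ctrl line 1 replicate 2 (-0.17 to 0.01 without single libraries). Sema3a was at 0.16 with scaling by library size, 0.00 on both log2(TPM) scales, 0.30 without Fib-dZeb1 line 1 and -0.17 to 0.15 without single libraries. Sema3f was at 0.12 with line number as a term, 0.08 in limma-voom, 0.27 and 0.24 on the log2(TPM) scales and -0.69 to 0.23 without single libraries. For the other changes of sign and for the calls lost with fewer samples, the cause was not tested.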

Other observations

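Sema4c reads were divided among 5 main protein-coding transcripts in shares that varied from library to library. Sema4c-208 carried a mean of 44.9% of the Sema4c TPM in Fib-Ctrl and 20.7% in Fib-dZeb1, with a range of 0 to 63.1% over the 8 libraries, and Sema4c-203 carried 19.2% and 38.8%, with a range of 3.21 to 69.4%. These transcripts were chosen after their values were seen.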
